A study of Mus musculus with 4 samples.

Results

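Notch signalling passes a message between neighbouring cells, and 10 of its genes were followed here in leukemic mouse cells with and without the RNA-binding protein Msi2. The 10 are the receptor genes Notch1, Notch2, Notch3 and Notch4, the inhibitor genes Numb and Numbl, the nuclear factor gene Rbpj, and the target or effector genes Hes1, Nrarp and Dtx4. They were found by gene symbol, and all 10 were among the 23284 gene rows of the count files. The RNA came from C57BL/6 mice in a study of leukemia driven by MLL, from leukemic cells that a sort had selected for much c-Kit, which marks immature blood cells. The groups were 2 mice of genotype Msi2 -/- and 2 mice of genotype Msi2 flox/flox, whose loxP-flanked alleles are intact and which are called control here. Each library came from 1 mouse. The Cre line, the MLL fusion, the ages of the mice and the way the leukemia was started do not appear among the labels used here.

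A Notch receptor is bound by a ligand on an adjacent cell, is cut by ADAM proteases and then by gamma-secretase, and releases its inner part. That part enters the nucleus, joins the DNA-binding protein RBPJ and turns on genes such as Hes1 and Nrarp. NUMB is an adaptor protein of endocytosis that holds the pathway back, and Numb mRNA is a classical target of Musashi proteins, which bind short UAG-containing words in its 3′ UTR and are known chiefly for blocking its translation. In blood, NOTCH1 directs progenitors to the T cell lineage, and Notch activity has been described as opposing myeloid leukemia. The comparison asks whether these transcripts differed after loss of Msi2. It reads RNA only, not protein or receptor cleavage.

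The Musashi words of Numb are shown because they are the reason the gene is set beside Msi2. The search took G or A, then 1 to 3 T, then AGT, on the mRNA strand, which gives 6 words such as GTAGT (T stands for U). The longest annotated 3′ UTR of Numb, from GENCODE M21 transcripts on GRCm38, has 1405 bases and holds 4 matches, which lie in 3 places. Positions count from 1 at the first base after the stop codon, the sequences run 5′ to 3′, and capitals mark the words.
Numb 3′ UTR 491 to 517: ccagtagagctGTAGTctggggataaa
Numb 3′ UTR 606 to 632: gaatattttaaATAGTtctcaatatta
Numb 3′ UTR 829 to 855: gcagtcactagGTAGTAGTtttaataa
In the last of them 2 words overlap. Such words are common: of 7823 other 3′ UTRs at least as long, 89.2% held a word in their first 1405 bases and 31.8% held at least 4. A match is a description of the letters and not a measured binding site. Among the other genes Rbpj held 8 words, Notch1, Notch2 and Dtx4 held 4 each, Nrarp held 3, Notch3 held 2, and Notch4, Numbl and Hes1 held 0, in 3′ UTRs of 368 to 3742 bases. Over the same length, at least as many words stood in 55.6% of other 3′ UTRs for Rbpj and 41.5% for Notch1. The share was 80.3% for Notch2, 83.7% for Dtx4, 68.1% for Nrarp and 52.9% for Notch3.

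Reads assigned to genes numbered 72273679 to 87564774 per library, and 3 counts correspond to 0.0343 to 0.0415 CPM. CPM are counts scaled by library size, here after TMM normalization. Msi2 itself had 2804 and 3562 counts in controls 1 and 2, against 8 and 17 counts in the Msi2 -/- mice, on the side its labels give. Its log2 fold change was -8.07 (SE 0.485). DESeq2 called it (adjusted p = 6.16e-80), but edgeR's quasi-likelihood test, the main test here, did not (adjusted p = 0.122). A missing call by the main test is therefore no evidence that a gene did not change. The progenitor genes Kit, Mpo, Elane, Ctsg, Hoxa9 and Meis1 were all expressed in all 4 libraries, with summed levels of 11217 and 11940 CPM in controls 1 and 2, against 7585 and 12224 CPM in the Msi2 -/- mice. The controls differed from the Msi2 -/- mice in sex-linked transcripts. Xist gave 1455 and 654 CPM in controls 1 and 2, against 0.469 and 0.624 CPM in the Msi2 -/- mice. The controls carried Y-linked transcripts too: 4 Y-linked genes summed to 41.1 and 184 CPM in controls 1 and 2, against 224 and 242 CPM in the Msi2 -/- mice. With 2 mice a group, these differences and the genotype cannot be told apart, and the same holds for a number of unstated meaning that opens the library names and is shared within each group.

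Numb did not separate the groups. It stood at 23.9 and 19.5 CPM in controls 1 and 2 and at 19.9 and 22.9 CPM in Msi2 -/- replicates 1 and 2. The Msi2 -/- values lay within the range of the controls. The log2 fold change, Msi2 -/- minus control, was -0.02 (SE 0.163; 95% interval -0.46 to 0.42), and neither edgeR's quasi-likelihood test (adjusted p = 0.969) nor DESeq2 (adjusted p = 0.988) called it. The interval still admits a lower or higher Numb level by up to about these amounts, and transcript counts do not measure NUMB protein. The 3 tested genes whose centred log2 CPM lay nearest to Numb over the 4 libraries were Vezt, Eny2 and Rnf167, at Euclidean distances of 0.033, 0.0477 and 0.0521, and 4 libraries give such a likeness little weight.

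Numbl, which encodes the related adaptor NUMB-like, was the lower of the Numb genes per kb of coding length in all 4 libraries. It stood at 5.45 and 5.19 CPM in controls 1 and 2, against 9.13 and 5.82 CPM in the Msi2 -/- mice. The groups did not overlap, but the second Msi2 -/- mouse lay close to the controls. On the log2 scale the difference was 0.49 (SE 0.29; adjusted p = 0.523 by edgeR and 0.496 by DESeq2), and ran from 0.14 without Msi2 -/- replicate 1 to 0.78 without Msi2 -/- replicate 2. Per kb of coding length, Numb made up 80.2% and 77.7% of the Numb and Numbl counts in the controls and 66.8% and 78.4% in the Msi2 -/- libraries. That share overlapped between groups (exact permutation test, two-sided, p = 0.667; the smallest p that 2 against 2 allows is 0.333).

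**Figure D1:**
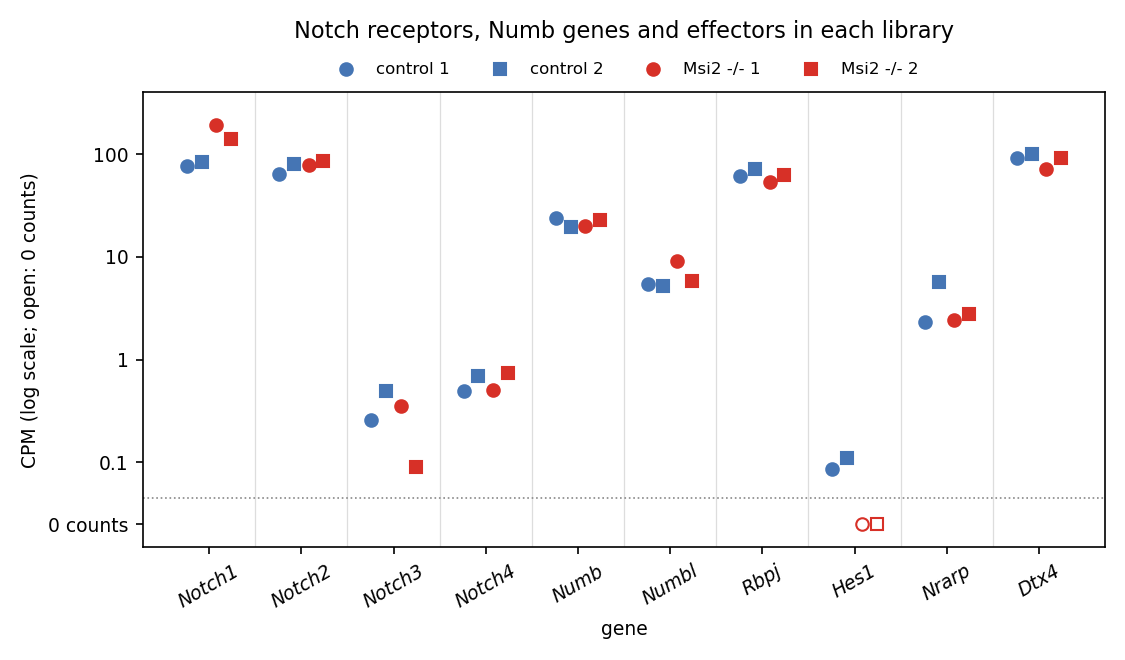
Level of the 10 genes in each library, as CPM on a log scale, with circles for replicate 1 and squares for replicate 2 of each group and open symbols for 0 counts. Notch1 lies higher in both Msi2 -/- libraries (191 and 140 CPM) than in both controls (76.5 and 84.5 CPM), Numb lies between 19.5 and 23.9 CPM throughout, and Hes1 has counts in the controls alone.

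Notch1 had the smallest p of the 9 genes that could be tested. Its receptor is the main driver of T cell fate and a known oncoprotein of T cell leukemia. It had 76.5 and 84.5 CPM in controls 1 and 2, against 191 and 140 CPM in the Msi2 -/- mice, from 6160 to 16655 counts. Both Msi2 -/- mice lay above both controls, with the first higher than the second. The log2 fold change was 1.04 (SE 0.172), a fold of 2.05. The 95% interval, not adjusted for the number of genes tested, was 0.57 to 1.5.

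The tools differed on whether Notch1 passed. DESeq2 gave an adjusted p of 5.03e-06 and edgeR's likelihood ratio test 0.000129, while edgeR's quasi-likelihood test, the main test, gave 0.271 and limma-voom 0.294. Of the 9 genes tested, the main test called 0 (background of all 13215 genes: 0% called higher and 0.00757% lower, a single gene, Ikzf2), and at an unadjusted p under 0.05 it had 1 higher and 0 lower (background 6.69% and 6.17%). By DESeq2 1 was higher and 0 lower (background 3.24% and 2.81%), and by limma-voom 0 passed. The log2 fold change of Notch1 ran from 0.81 without Msi2 -/- replicate 1 to 1.24 without Msi2 -/- replicate 2. In the latter fit the main test called it (adjusted p = 0.0376), with the lone Msi2 -/- mouse assumed to vary like the controls.

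Transcripts of other cell types were read beside Notch1. The 7 T cell markers summed to 10.9 and 10.4 CPM in controls 1 and 2, against 9.32 and 9.75 CPM in the Msi2 -/- mice, and Cd3e, Cd3g and Cd8a had 0 counts in all 4. Most of that sum was Lck, at 6.5 to 9.95 CPM, which blood cells other than T cells also express. Bcl11b had 1.9 and 0.37 CPM in the controls against 2.64 and 0.273 CPM in the Msi2 -/- mice, and Cd3d had 3 and 4 counts against 16 and 2 counts. Both were highest in the first Msi2 -/- mouse, as Notch1 was, and overlapped between groups. The 5 B cell markers summed to 26.7 and 26.7 CPM in controls 1 and 2, against 20.9 and 18.7 CPM in Msi2 -/-. Most was Cd79b, which DESeq2 called lower (adjusted p = 0.0377, background 2.81%) and edgeR did not (adjusted p = 0.335). The 5 stromal markers summed to 11.4 and 12.7 CPM against 13.1 and 4.37 CPM. Of them Col1a1 was higher without overlap, at 23 and 21 counts against 67 and 55. The 6 erythroid and megakaryocyte markers summed to 2.01 to 2.27 CPM. The 5 neutrophil genes (Ngp, Camp, Ltf, S100a8 and S100a9) summed to 997 and 626 CPM in controls 1 and 2, against 1355 and 2120 CPM in the Msi2 -/- mice. The sum was higher in both Msi2 -/- mice, and S100a8 and S100a9 made up most of it there. S100a8, S100a9 and Ltf did not overlap between groups, whereas Ngp and Camp did, with the first Msi2 -/- mouse below control 1. Ltf was highest in the first Msi2 -/- mouse, at 21.3 CPM against 9.16 CPM in the second.

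Among the other myeloid genes, DESeq2 called Mpo lower and Csf1r higher. Mpo, for the myeloperoxidase of early granule formation, had 4001 and 4953 CPM in controls 1 and 2, against 2117 and 2159 CPM in Msi2 -/- (log2 fold change -1.07 with SE 0.127; adjusted p = 0.265 by edgeR and 8.16e-12 by DESeq2). Csf1r, the M-CSF receptor gene of monocytes and macrophages, stood at 4.32 and 6.39 CPM in controls 1 and 2, against 10.5 and 14.0 CPM in Msi2 -/- (log2 fold change 1.19 with SE 0.293; adjusted p = 0.325 by edgeR and 0.00906 by DESeq2). Of the 5 neutrophil genes DESeq2 called 3 higher, of the 6 progenitor genes 1 lower and of the 5 macrophage markers 1 higher (background 3.24% higher and 2.81% lower). The other genes of the last 2 lists did not follow Mpo and Csf1r. Kit was higher without overlap (50.4 and 51.9 CPM against 68.1 and 57.1 CPM), and Elane, Ctsg, Hoxa9 and Meis1 overlapped between groups. The macrophage gene Emr1 overlapped too (28.7 and 42.9 CPM against 19.9 and 64.7 CPM), and C1qa, C1qb and Mertk had at most 7 counts. The part of all these genes in the Notch1 difference was not tested, and in bulk RNA more cells of a type and more RNA per cell cannot be told apart.

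Notch2, the other receptor gene well expressed here and one known for roles in B cells and myeloid cells, did not separate the groups. It stood at 64.5 and 81.0 CPM in controls 1 and 2, against 78.6 and 85.7 CPM in the Msi2 -/- mice. The first Msi2 -/- value lay between the controls. Its log2 fold change was 0.18 (SE 0.134; 95% interval -0.19 to 0.54; adjusted p = 0.617 by edgeR and 0.676 by DESeq2), and it ran from 0.02 without control replicate 1 to 0.35 without control replicate 2.

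Notch3 and Notch4 were barely detected. Notch3, a receptor of vascular smooth muscle and thymocytes, had 21 and 36 counts in controls 1 and 2, against 31 and 7 counts in the Msi2 -/- mice. The groups overlapped, and the log2 fold change of -0.74 (SE 0.81) ran from -2.02 without Msi2 -/- replicate 1 to -0.08 without Msi2 -/- replicate 2, and was -0.21 without control replicate 2. Notch4, a receptor best known in endothelium, had 40 and 51 counts in controls 1 and 2, against 44 and 57 counts in the Msi2 -/- mice, with a log2 fold change of 0.06 (SE 0.433). Of the 6 endothelial markers, Emcn was at 0 in all libraries and Cdh5, Kdr and Tek had at most 10 counts. Vwf, also a gene of megakaryocytes, was detected at 186 to 479 counts, or 2.13 to 6.23 CPM, and Pecam1, which myeloid cells also express, at 24.6 to 166 CPM.

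Among the receptors, Notch1 made up more of the transcripts in both Msi2 -/- mice than in either control. Per kb of coding length, Notch1 held 53.3% and 50.1% of the counts of the 4 receptors in the controls, and 70.1% and 61.2% in the Msi2 -/- libraries. Notch2 held 46.0% and 49.1% in the controls and 29.6% and 38.3% in the Msi2 -/- libraries. Notch3 and Notch4 each stayed under 1% in every library. The Notch1 share was 13.9 percentage points higher in Msi2 -/- without overlap of the groups (exact permutation test, two-sided, p = 0.333, the smallest that 2 against 2 allows), so no receptor share can pass a threshold of 0.05. The ratio of Notch1 to Notch2 per coding length was 1.16 and 1.02 in the controls and 2.37 and 1.60 in the Msi2 -/- libraries.

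**Figure D2:**
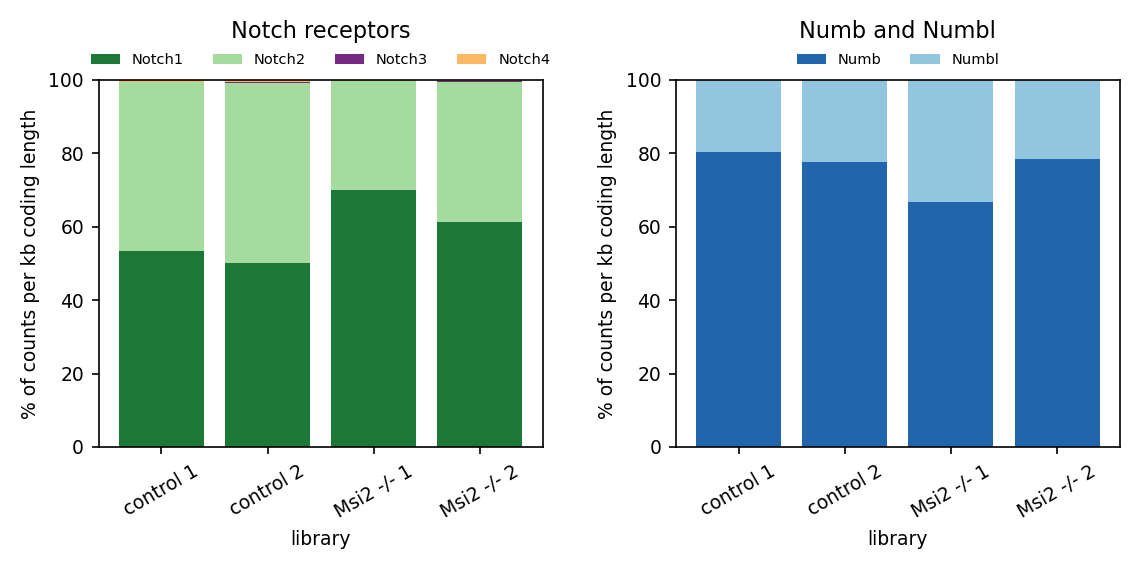
Make-up of the Notch receptors (left) and of the Numb genes (right) in each library, as percent of counts per kb of coding length, drawn from 0 to 100%. The Notch1 share is 53.3% and 50.1% in the controls and 70.1% and 61.2% in the Msi2 -/- libraries, and the Numb share of the second Msi2 -/- library (78.4%) lies between those of the controls.

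Rbpj, whose protein carries the released receptor fragment to DNA and without that fragment represses the same targets, overlapped between groups. It had 61.1 and 72.3 CPM in controls 1 and 2, against 53.2 and 63.2 CPM in the Msi2 -/- mice. On the log2 scale Rbpj differed by -0.20 (SE 0.136; 95% interval -0.56 to 0.17; adjusted p = 0.582 by edgeR and 0.649 by DESeq2), and by -0.07 without control replicate 2 to -0.33 without Msi2 -/- replicate 2. RBPJ recognises TGGGAA, letters that overlap the core word read by Ikaros family proteins. On both strands, TGGGAA stood in both RefSeq promoter windows of Rbpj (GRCm38.p6, 300 bases each, 250 before and 50 after the start; chr5:53590096-53590395 and chr5:53590236-53590535, plus strand), and the windows overlap and share a match. It was in 0 of the 9 windows of Notch1, Notch2, Notch3, Notch4, Numb, Numbl and Nrarp, against 25.6% of all 32851 windows, which says only that these letters are not there. The longer form GTGGGAA stood in neither window of Rbpj, against 6.38% of all windows, and a match is not a measured binding site. Windows of Hes1 and Dtx4 were not analysed here.

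Hes1, the best known RBPJ target and a repressor gene that Notch switches on in many tissues, was close to the limit of detection. It had 7 and 8 counts in the controls and 0 counts in each Msi2 -/- library. The groups did not overlap, and the control level was 5.46-fold above a floor of 3 counts over the Msi2 -/- group. That figure takes the 15 control counts as exact. It covers neither their counting error nor the variation between mice. Hes1 did not reach the filter on low counts and so was not tested with the others. With no filter, edgeR's quasi-likelihood test gave it an adjusted p of 0.369, and DESeq2 gave it no adjusted p. Even the control level, 0.0986 CPM over both mice, placed Hes1 among the least abundant of the 10 genes.

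Nrarp encodes a small ankyrin protein that Notch induces and that feeds back to limit the receptor fragment. It stood at 2.31 and 5.73 CPM in controls 1 and 2, against 2.44 and 2.79 CPM in the Msi2 -/- mice. Control 2 was high and the other 3 libraries lay close together. The log2 fold change of -0.62 (SE 0.505; adjusted p = 0.637 by edgeR and 0.682 by DESeq2) became 0.18 without control replicate 2, so its direction rested on that library.

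Dtx4 encodes an E3 ubiquitin ligase of the Deltex family, which binds Notch receptors and takes part in their trafficking. It had 92.4 and 101 CPM in controls 1 and 2, against 71.4 and 92.6 CPM in the Msi2 -/- mice. The first Msi2 -/- library was the lowest, and the second lay just above control 1. Its difference between groups was -0.23 on the log2 scale (SE 0.147; 95% interval -0.63 to 0.16; adjusted p = 0.547 by edgeR and 0.573 by DESeq2), and ran from -0.05 without Msi2 -/- replicate 1 to -0.43 without Msi2 -/- replicate 2.

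**Figure D3:**
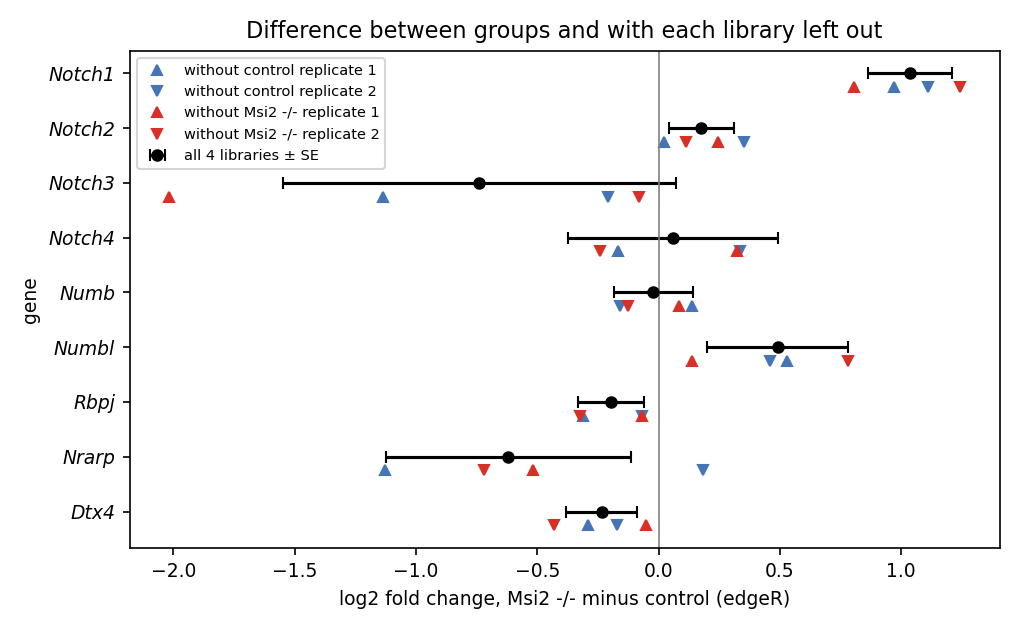
Log2 fold change of the 9 tested genes, Msi2 -/- minus control, from edgeR with all 4 libraries (black, bars of 1 SE) and with each library left out (triangles). Notch1 stays between 0.81 and 1.24 in the fits with a library left out, whereas Numb, Notch4 and Nrarp take both signs.

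Compared per kb of coding length in the controls, Dtx4 was the highest of the 10 at 52.2 ± 3.14 CPM per kb and Rbpj followed at 42.3 ± 5.05 (SD, n = 2). Nrarp, Numb, Notch1 and Notch2 came next at 11.8 ± 7.09, 11.1 ± 1.6, 10.6 ± 0.744 and 9.81 ± 1.57 CPM per kb, and each overlapped its neighbour in this order. Numbl was lower at 2.94 ± 0.104 CPM per kb. Hes1, Notch4 and Notch3 stood at 0.116 ± 0.0196, 0.101 ± 0.0248 and 0.0541 ± 0.0239 CPM per kb, and Hes1 and Notch4 overlapped. In the Msi2 -/- libraries Notch1 stood at 25.1 and 18.4 CPM per kb, above all Nrarp, Numb and Notch2 values of those libraries. Among 11440 genes ranked by this level, Notch1 lay between the 34.9th and the 53.3rd percentile over the 4 libraries, Numb between the 35.1st and the 37.9th, and Dtx4 between the 63.5th and the 71.4th. The order and the percentiles depend on the length used, because exons reach beyond the coding part by unlike amounts. Exon against coding length was 2582 against 342 bases for Nrarp, 5226 against 1848 for Dtx4 and 9488 against 7593 for Notch1. The order per kb of exon was not examined.

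As a group the 10 genes did not move in a common direction. Of the 9 tested, 4 lay above 0 and 5 below on the log2 scale, the median being -0.02 against -0.00 over all genes tested. The groups did not overlap for 2, Notch1 and Numbl, both higher in Msi2 -/- (background 23.7% of all genes higher and 24.6% lower without overlap). That is 2 of 9 higher and 0 of 9 lower.

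Other genes of the pathway came from 8 lists that hold 84 different genes, 70 of them tested. The main test called 0, and at an unadjusted p under 0.05 it had 5 higher and 7 lower (background 6.69% and 6.17% of all genes). By DESeq2 3 were higher and 4 lower (background 3.24% and 2.81%), and by limma-voom 0 passed. The groups did not overlap for 19 genes higher and 15 lower in Msi2 -/- (background 23.7% and 24.6%). The median log2 fold change of the 70 was 0.05.

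Most of the ligands and ligand-like genes were low or absent, and Jag2 was the highest of them. All 5 that were tested had log2 fold changes below 0 (background 6641 of all 13215 genes), with a median of -1.04. That median was the value of ligand-like Dlk1 (SE 1.33), which overlapped between groups at 2.80 and 5.94 CPM in controls 1 and 2 against 4.03 and 0.208 CPM in Msi2 -/-. Dlk2, also ligand-like, was at -0.06 (SE 0.401) with overlap. Jag2, which encodes a Jagged ligand, had 11.4 and 16.2 CPM in controls 1 and 2, against 4.69 and 9.84 CPM in Msi2 -/- (log2 fold change -0.93, SE 0.43). Jag1 had 2.55 and 2.44 CPM against 0.458 and 1.48 CPM (log2 fold change -1.37, SE 0.634). Dll3, a Delta-like protein that inhibits Notch within the same cell, had 58 and 24 counts against 18 and 9 counts. The groups did not overlap for Jag2, Jag1 and Dll3 (background 24.6% lower). None of these 3 passed by edgeR (adjusted p from 0.394 to 0.443) or DESeq2 (adjusted p from 0.253 to 0.412). The first Msi2 -/- mouse was the lower for Jag1 and Jag2 and the second for Dll3. With a library left out Jag1 ran from -2.44 to -0.74 and Jag2 from -1.55 to -0.48, in both cases from the fit without Msi2 -/- replicate 2 to the fit without Msi2 -/- replicate 1, and Dll3 ran from -2.14 to -1.01. Dll1 and Dner had 0 counts in all libraries and Dll4 at most 6.

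Enzymes that add sugars to the receptor or cut it included 1 gene that DESeq2 called. Adam17, a protease of the first cut, had 123 and 140 CPM in controls 1 and 2, against 94.9 and 98.7 CPM in Msi2 -/- (log2 fold change -0.44 with SE 0.092; adjusted p = 0.297 by edgeR and 0.00711 by DESeq2). Psenen, for a subunit of gamma-secretase, differed by 0.25 (SE 0.0948) on the log2 scale, with no overlap of the groups and no call by either tool. Of 10 cleavage genes DESeq2 called 0 higher and 1 lower (background 3.24% and 2.81%), and the median was 0.10. For the sugar-adding enzymes, Pofut1, which puts fucose on the receptor, was at -0.22 (SE 0.069), Poglut1, which adds glucose, at -0.41 (SE 0.167) and Lfng, for lunatic fringe, at 0.39 (SE 0.181). Lfng ran from 0.15 without Msi2 -/- replicate 1 to 0.60 without Msi2 -/- replicate 2, and Poglut1 from -0.59 without Msi2 -/- replicate 2 to -0.24 without control replicate 2. Of the 6 genes of that list 0 were called, and the median was 0.04.

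Ubiquitin and endocytic regulators held 3 genes called by DESeq2 among 17 tested, 2 higher and 1 lower (background 3.24% and 2.81%). Cbl, a ubiquitin ligase gene for receptors that include c-Kit, had 49.7 and 58.2 CPM in controls 1 and 2, against 97.7 and 82.3 CPM in Msi2 -/- (log2 fold change 0.74 with SE 0.131; adjusted p = 0.289 by edgeR and 0.000252 by DESeq2). Aak1, for a kinase of endocytic adaptors that also acts on NUMB, had 102 and 87.7 CPM against 132 and 137 CPM (log2 fold change 0.51 with SE 0.0985; adjusted p = 0.293 by edgeR and 0.00178 by DESeq2). Nedd4, a ubiquitin ligase gene, had 756 and 799 CPM against 587 and 591 CPM (log2 fold change -0.40 with SE 0.0679; adjusted p = 0.282 by edgeR and 1.37e-05 by DESeq2). The groups did not overlap for these genes, and the list's median was 0.11.

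Of the partners of RBPJ, neither edgeR nor DESeq2 called any. Maml3, of the Mastermind coactivators, had 7.07 and 8.16 CPM in controls 1 and 2, against 3.59 and 5.58 CPM in Msi2 -/- (log2 fold change -0.73 with SE 0.296; adjusted p = 0.407 by edgeR). Ep300 and Kat2b, for histone acetyltransferases, were at 0.12 (SE 0.0735) and 0.23 (SE 0.154). Of the corepressors, Tle3, Tle2 and Ctbp1 were at -0.42 (SE 0.261), 0.71 (SE 0.5) and 0.15 (SE 0.117), with overlap of the groups. With a library left out Kat2b ran from 0.10 to 0.38, Tle3 from -0.82 to -0.10, Tle2 from 0.06 to 1.17 and Ctbp1 from 0.02 to 0.30. Either tool called 0 of 7 coactivators (median 0.08) and 0 of 14 corepressors (median -0.02).

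Downstream of RBPJ, most of the HES and HEY family was near the limit of detection, since 2 of its 8 listed genes reached the test. Hes6, whose product is known to oppose HES1 rather than to be induced by Notch, had 126 and 139 CPM in controls 1 and 2, against 87.4 and 89.8 CPM in Msi2 -/- (log2 fold change -0.58 with SE 0.0786; adjusted p = 0.271 by edgeR and 3.09e-06 by DESeq2). Hes7 overlapped between groups at 0.32 (SE 0.416). Hes5 had 9 to 12 counts in every library, Heyl 0, and Hes2, Hes3, Hey1 and Hey2 at most 4.

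Reported Notch targets, many of them from T cells, split in both directions, with a median of -0.38 over the 9 that were tested of 15 listed. Tcf7, a transcription factor gene of early T cells and of stem cells, had 6.57 and 5.24 CPM in controls 1 and 2, against 1.84 and 2.31 CPM in Msi2 -/- (log2 fold change -1.51 with SE 0.276; adjusted p = 0.293 by edgeR and 0.000315 by DESeq2). Gata3, which encodes another T cell factor, gave 12 and 15 counts in the controls but 3 counts in each Msi2 -/- library. The ratio was 0.208 (95% exact Poisson interval 0.0703 to 0.515), and the interval pools the mice of a group and covers counting error only. In the main fit the Gata3 log2 fold change was -2.22 (SE 0.625; adjusted p = 0.336 by edgeR), and DESeq2 gave no adjusted p. Cdkn1a, the gene of the cell cycle inhibitor p21 and a target of p53 as well as of Notch, had 244 and 149 CPM in controls 1 and 2, against 364 and 403 CPM in Msi2 -/- (log2 fold change 0.97 with SE 0.257; adjusted p = 0.333 by edgeR and 0.00398 by DESeq2). DESeq2 called 1 of the list higher and 1 lower (background 3.24% and 2.81%). Ptcra and Dtx1, which Notch induces in T cells, had at most 4 counts in any library.

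**Figure D4:**
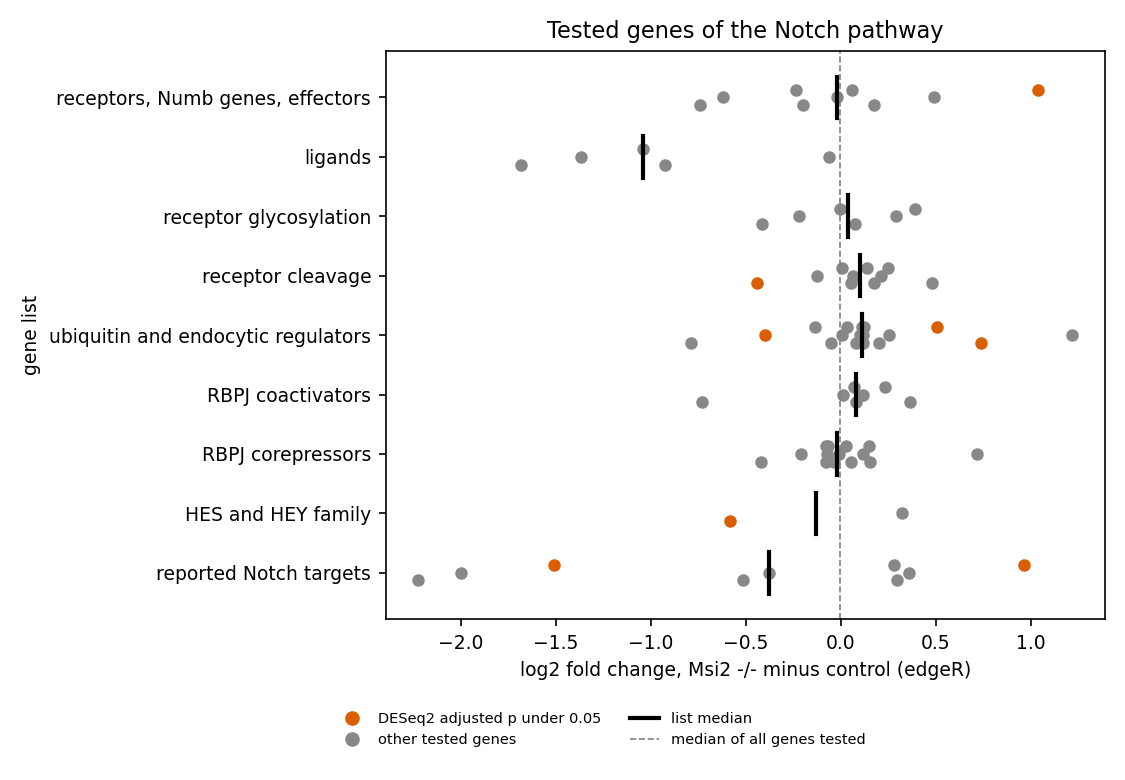
Log2 fold change of each tested gene, Msi2 -/- minus control, by group of the pathway, with the group's median as a black bar, the median of all genes as a dashed line and DESeq2's calls in orange. The 5 tested ligands and ligand-like genes lie below 0 without a call, and the corepressors lie around -0.02. Notch1 is the single orange point among the receptors, Numb genes and effectors.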

How the data were processed

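The 4 RNA libraries were grouped by their titles, with 2 mice in each group. The deposited values are raw counts per gene symbol, not normalized by the authors. Per the submitters' processing notes, which give no versions, the tools were Trimmomatic, STAR, HTSeq and DESeq and the build was mm9. For annotation, strand setting and overlap mode nothing is given in the sources used here; overlapping or antisense genes may share reads. In each file 5 closing rows that name no gene held 19.1% to 20.1% of the counts and were left out.

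The main test used edgeR 4.0.16 in R 4.3.3, with filterByExpr (minimum count 10, minimum total 15), TMM scaling, and a quasi-likelihood test on group, two-sided, with Benjamini-Hochberg adjustment over 13215 genes at 0.05. Standard errors come from the F statistic and 95% intervals from 4.29 degrees of freedom. DESeq2 1.42.0 (Wald test, 12961 genes with an adjusted p) and limma 3.58.1 (voom) were alternatives. Both edgeR and DESeq2 were also run on simulated counts, whose outcome is not reported here and is not used as support for either tool. Coding lengths are the longest per gene in GENCODE M21, used in place of the RefSeq proteins first planned.

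The libraries differed far beyond sampling noise (chi-square per gene 51.7 between controls, 125 between Msi2 -/-), so each counts as 1 sample. The members and gene lists were chosen with earlier results of these data known, so adjustment was over all genes only. Named were all members and Msi2, the 3 genes of smallest edgeR p in each list, and the 3 genes nearest to Numb, except that a gene of these lists is not reported here. Genes at or near 0 counts, single marker genes, Dlk1, Dlk2 and Ikzf2 were named after their values were seen.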

Additional observations from a re-analysis of the deposited data

How the results depend on the processing

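Over all genes the main test called 1. It called 6 with no filter on low counts, 784 by DESeq2, 312 by edgeR's likelihood ratio test, 0 by limma-voom and 0 with the replicate number as a block, and from 0 (without either control) to 106 (without Msi2 -/- replicate 2) with a library left out. Of the 10 genes 0 were called, against 1 (Notch1) by DESeq2, 1 by the likelihood ratio test, and 0 to 1 with a library left out, the 1 being Notch1 without Msi2 -/- replicate 2. Of the pathway lists 0 were called, against 7 by DESeq2 (Adam17, Nedd4, Cbl, Aak1, Hes6, Tcf7 and Cdkn1a) and 4 by the likelihood ratio test (Cbl, Aak1, Hes6 and Cdkn1a). The cause of these differences between tools was not tested.

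With a library left out the sign changed for Numb (-0.16 to 0.14), Notch4 (-0.24 to 0.33), Nrarp (-1.13 to 0.18) and Hes7 (-0.034 to 0.80), none of them called. Under the other alternatives, 0 of the 260 log2 fold changes of 33 named genes changed sign. The Notch1 share of receptor counts was 13.9 percentage points higher with no length scaling, 13.6 with exon length (chosen after seeing the data), and 9.5 to 18.4 with a library left out; the difference in the Numb share, -6.31 points, was -6.08 with no length scaling and -0.52 without Msi2 -/- replicate 1.

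The deviations of same-numbered libraries had a correlation of 0.0101 over genes. The value for different-numbered libraries, -0.0101, is the same number with its sign changed, because the deviations within a group mirror each other. Whether the numbers pair the mice cannot be decided from this correlation. With the replicate number as a block Notch1 stood at 1.02 (edgeR adjusted p = 0.391). Depth limits Hes1, Notch3 and Notch4, whose counts did not exceed 57.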
